A study of Ciona robusta with 15 samples.

Results

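Described here are 56 of the 15284 gene models measured in Ciona robusta embryos, selected on their own measured values as genes that were high when the T-box factor Bra was placed in neural tissue together with Foxa.a, and lower once Mnx was added to that pair. For each gene and replicate number, D was the log2 ratio of (normalised reads + 1) in the treated library to that in the control library of the same number. A gene was a member when D was at least 0.7 in all 3 Bra+Foxa.a libraries and mean D was at least 0.4 with Bra alone. With Bra, Foxa.a and Mnx, its mean D had to be under 0.7 and at least 0.7 below that in Bra+Foxa.a, and its Bra+Foxa.a mean had to be at least 20 normalised reads. The values of those 3 contrasts are therefore given as a description with no test. The libraries that received Bra and Mnx without Foxa.a played no part in the choice. The tests set them against Bra or control libraries, which the rule did use, so neither test is fully independent of the choice.

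The plasmids, electroporated into fertilised eggs without their chorion, carried each factor under the neural enhancer of Etr, and RNA was taken from pools of 300 whole embryos grown at 21 °C to Hotta stage 19.5. There were 3 libraries in each of 5 groups. Control embryos received Etr1>H2B-Venus, and Bra embryos received Etr1>Venus-Bra. The other groups received that Bra plasmid with Etr1>Foxa.a-Myc (Bra+Foxa.a), with Etr1>Mnx-HA (Bra+Mnx), or with both (Bra+Foxa.a+Mnx). No group received Mnx or Foxa.a without Bra, and the labels give no plasmid amounts. RNA of a gene in the embryo and RNA from its plasmid cannot be told apart, and in these bulk samples fewer cells of a type and less RNA per cell cannot be told apart either. The 3 libraries of a group are described as biological replicates without a word on what separates them, so the p-values measure the spread between these samples, which may be partly technical.

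Bra (Brachyury) is a T-box transcription factor whose expression in ascidians is confined to the notochord, the rod that stiffens the larval tail, and it switches on the genes of notochord differentiation. Foxa.a is a forkhead factor that acts upstream of Bra and is expressed in notochord and endoderm among other tissues. Mnx is a homeodomain factor, a class best known in vertebrates for the identity of motor neurons. The series title frames the experiment as a question about a feedforward network around Bra.

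The libraries held 17689915 to 26460260 reads on gene models. Libraries of the same number deviated from their group means together (correlations of 0.55 to 0.72 in 30 pairs of libraries, against -0.44 to -0.12 in 60 pairs with different numbers), so results are given without and with the replicate number as a block. Members carry KH identifiers with no gene names in the files, so they are described by their values. Their mean in control embryos ranged from 2.69 to 951 normalised reads with a median of 43.7. In this count, 19 members were under 20 normalised reads, 18 were between 20 and 100, and 19 were at 100 or more.

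In the contrasts that chose them, the members were at a median of mean D of 0.99 with Bra, 1.57 with Bra+Foxa.a and 0.41 with Bra+Foxa.a+Mnx. Among the members, mean D was higher in Bra+Foxa.a than in Bra for 52 and lower for 4, with a median difference of 0.56. Of all 14260 genes tested, 6991 were higher. The rule did not use this difference itself, but it used both terms and set the higher threshold for Bra+Foxa.a, which favours this direction. The median member lay 1.15 lower with all 3 factors than with Bra+Foxa.a. A set of 420 genes met the same conditions on Bra, Bra+Foxa.a and level without meeting both conditions on Bra+Foxa.a+Mnx. These comparison genes were at a median of 1.44 with Bra, 1.93 with Bra+Foxa.a and 1.53 with all 3 factors. Among them 351 were higher in Bra+Foxa.a than in Bra, with a median difference of 0.41. The median member was therefore lower in Bra and in Bra+Foxa.a than the median comparison gene. The rule's ceiling on mean D with all 3 factors favours this difference. Over all genes, median mean D was -0.01 in the Bra group, and it had the same value in Bra+Foxa.a.

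**Figure D1:**
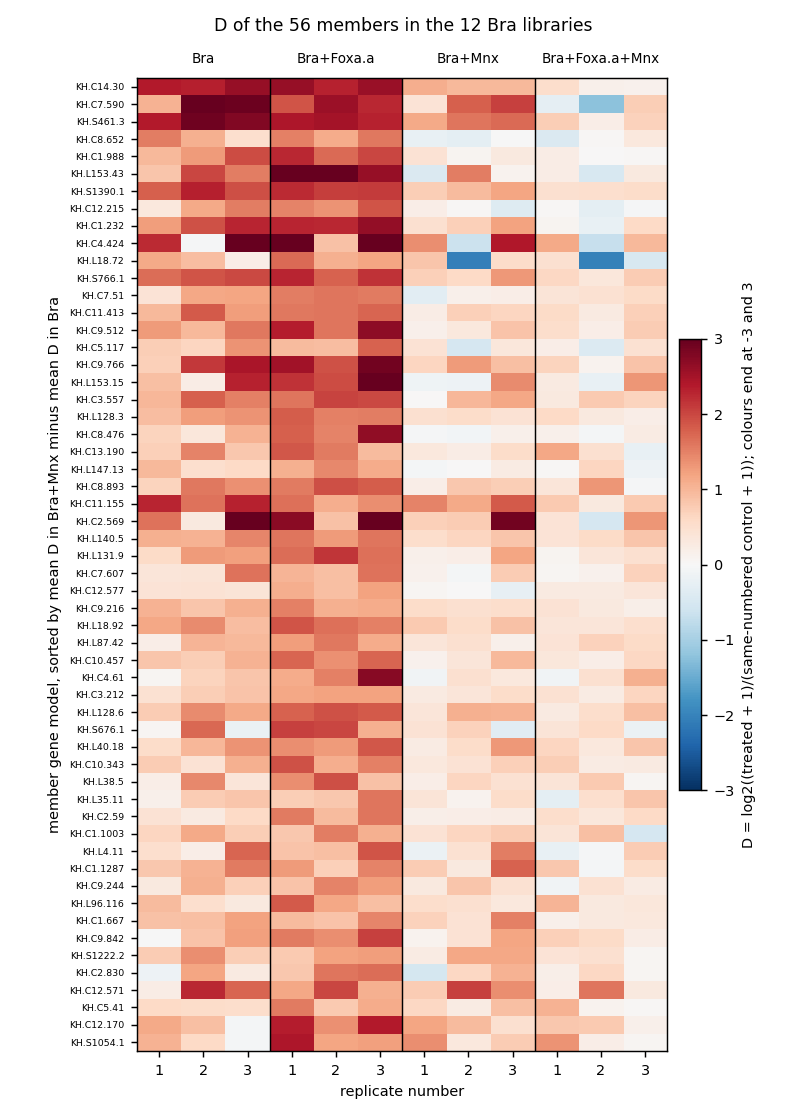
D, the log2 ratio to the control library of the same number, of the 56 members (rows) in the 12 treated libraries (columns), drawn as colour. The Bra+Foxa.a columns have the highest medians (1.49 to 1.65). The Bra+Mnx columns, which the rule did not use, have medians of 0.37 to 0.76, below those of Bra and overlapping the 0.30 to 0.47 of Bra+Foxa.a+Mnx.

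Values ran on across each threshold without a gap. Minimum D in Bra+Foxa.a was 0.72 for KH.C1.1287, just inside, and 0.68 for KH.C7.41, just outside. Mean D in Bra was 0.41 for KH.C12.577 and 0.34 for KH.C12.539. With all 3 factors, mean D was 0.698 for KH.C12.571 inside and 0.702 for KH.C12.165 outside. The drop was 0.704 for KH.L35.11 and 0.698 for KH.C8.483. The mean in Bra+Foxa.a, as the authors normalised it, was 20.2 normalised reads for KH.C12.571 and 19.2 for KH.S643.5. On the common scale of the other printed reads, KH.C12.571 was at 19.3. The ceiling on mean D with all 3 factors was the only condition failed by 113 genes. The other conditions were the only one failed by 60 genes (minimum D in Bra+Foxa.a), 27 genes (drop), 25 genes (level) and 10 genes (mean D in Bra).

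When Mnx was added to Bra without Foxa.a, the members were again low relative to Bra alone. Fitted log2 differences of Bra+Mnx from Bra ranged from -1.44 to 0.30 with a median of -0.51, with 53 members below 0 and 3 above. The comparison genes had a median of 0.07 and all genes tested a median of 0.00. Without the block, 0 of the 56 members passed at an adjusted p under 0.05 in limma, beside 2 of 14260 genes tested (0.0140%), and edgeR called 0 members and DESeq2 2. At an unadjusted p under 0.05 there were 22 members, against 1.84% of all genes. The Bra libraries had to be high for a gene to be a member, which favours a fall from Bra in the members over all genes, and the comparison genes were held to the same condition. With the replicate block, 14 members fell (25.0%) and 0 rose, beside 119 of 14260 genes that fell (0.835%). Leaving out replicate number 2 from the block fit left 4 of those calls. Among the comparison genes 23 fell (5.48%) and 24 rose. The members made up 11.8% of all genes that fell.

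The same difference could be read library by library. The median D of the members was 0.79, 1.05 and 1.22 in the 3 Bra libraries and 0.37, 0.47 and 0.76 in the Bra+Mnx libraries of the same numbers. In each number Bra+Mnx was the lower, with median differences of -0.42, -0.52 and -0.43, and 47, 53 and 45 members lay below their Bra value. Of the comparison genes, 202, 241 and 135 did so in the same pairs. All 3 pairs pointed down for 37 members (66.1%), against 14.9% of all genes tested and 24.3% of comparison genes. For 13 members (23.2%) every Bra+Mnx library lay below every Bra library, against 2.98% of all genes and 6.19% of comparison genes. The condition on the Bra libraries enters these counts too, in both sets.

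**Figure D2:**
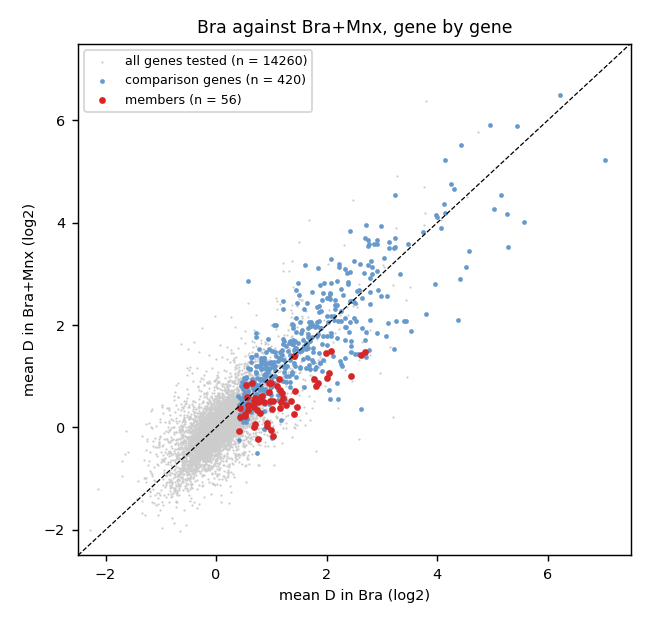
Mean D in Bra+Mnx (vertical axis) against mean D in Bra (horizontal axis), both log2 ratios to control, one point per gene. Shown are all 14260 genes tested (grey), the 420 comparison genes (blue) and the 56 members (red), with a dashed line of equality. Nearly all members, 53 of 56, lie below the line, whereas the comparison genes lie on both sides of it.

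KH.C14.30 stood lowest against Bra. It was at 53.75, 143 and 86.2 normalised reads in the 3 control libraries and at 286, 729.5 and 535 in Bra. In Bra+Mnx it was at 116, 282 and 169. Each Bra+Mnx library was between its control and its Bra partner, and no Bra+Mnx library reached the lowest Bra library. The log2 difference from Bra was -1.44 ± 0.44 (SE, n = 3 libraries per group). In limma the adjusted p was 0.9999 without the block and 4.56e-06 with it. Standard errors here and for the other members and listed genes are those of the fit without the block. In Bra+Foxa.a, at 332, 716 and 521, the gene was close to its Bra levels, and with all 3 factors, at 78.6, 157.5 and 94.6, it was close to control.

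KH.S766.1, the member with the most reads in Bra+Foxa.a, showed the same arrangement at a far higher count. Control libraries were at 634, 983 and 886 normalised reads, Bra libraries at 2029, 3663 and 3471, and Bra+Foxa.a libraries at 3119, 3348 and 3954. Bra+Mnx libraries were at 1053, 1497 and 2179, and those with all 3 factors at 984, 1233 and 1513. Pair by pair, Bra+Mnx was above control and below Bra, although its highest library passed the lowest Bra library. The difference from Bra was -0.97 ± 0.27 on the log2 scale (adjusted p = 0.902 without and 3.95e-04 with the block, limma).

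KH.S461.3 responded more strongly to Bra. It rested on 7.93, 11.6 and 14.4 normalised reads in control, and was at 45.5, 94.3 and 104 in Bra and 18.7, 37.2 and 48.7 in Bra+Mnx. Every Bra+Mnx library was above every control library, and the highest of them was just above the lowest Bra library. Against Bra the log2 difference was -1.21 ± 0.41, with an adjusted p in limma of 0.9999 without the block and 0.0110 with it. That call was lost without replicate number 2 (adjusted p = 0.135) and without number 3 (adjusted p = 0.0701).

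KH.C8.652 was a member whose Bra+Mnx libraries sat at the control level. Its normalised reads were 15.9, 27.3 and 22.1 in control, 48.3, 58.2 and 31.6 in Bra, and 13.6, 22.1 and 21.9 in Bra+Mnx. The Bra+Mnx libraries did not overlap the Bra libraries and did overlap the controls. The log2 difference from Bra was -1.21 ± 0.37 (adjusted p = 0.9999 without and 0.0305 with the block, limma). The call with the block was lost without number 1 (adjusted p = 0.211) or number 2 (adjusted p = 0.419). From control the gene differed by -0.17 ± 0.36, which passed in neither fit.

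**Figure D3:**
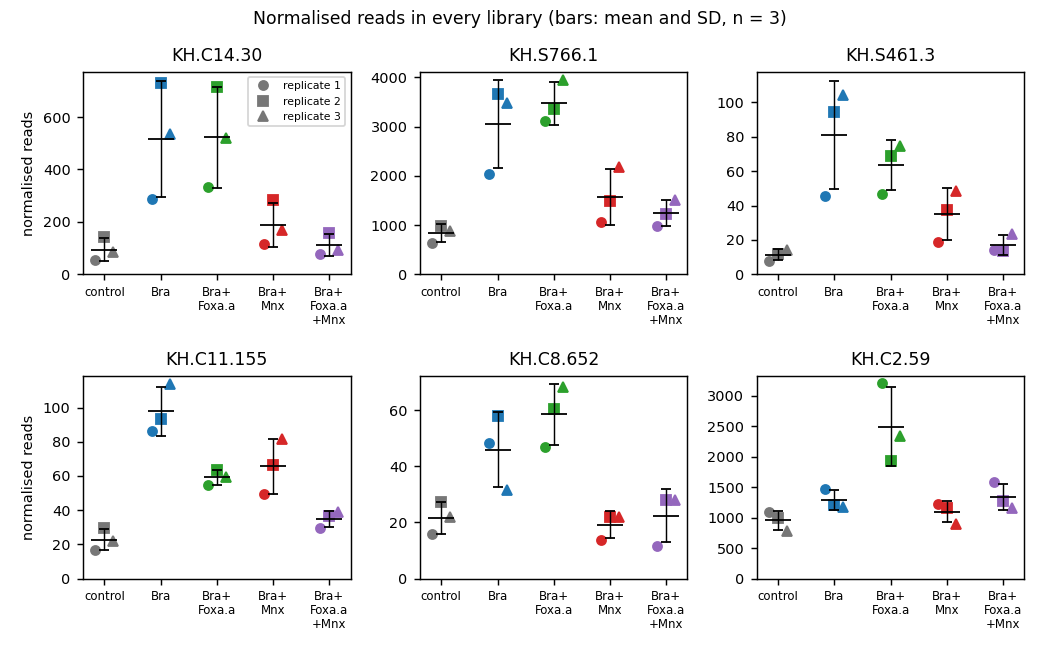
Normalised reads per library, on a linear axis from 0, of 6 members in the 5 groups. Marker shapes give the replicate number and bars the mean and SD of 3 libraries. KH.C14.30, KH.S766.1, KH.S461.3 and KH.C11.155 stand in Bra+Mnx between control and Bra, KH.C8.652 stands at the control level there, and KH.C2.59 is highest in Bra+Foxa.a.

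Against control, most members had fitted values above 0 in Bra+Mnx, with a median below that of the comparison genes, and few or none passed. Fitted log2 fold changes ranged from -0.22 to 1.49 with a median of 0.52, above 0 in 52 members and below 0 in 4, where the comparison genes had a median of 1.47 and all genes a median of -0.01. Without the block, 0 members passed in limma, beside 209 of 14222 genes tested (1.47%) and 156 comparison genes. Here too edgeR called 0 members, and DESeq2 called 3. Unadjusted p was under 0.05 for 17 members, against 5.53% of all genes. With the block, 15 members rose (26.8%), beside 922 of 14222 genes (6.48%) and 333 of the 420 comparison genes (79.3%). Every Bra+Mnx library was above every control library for 21 members (37.5%), against 7.53% of all genes and 75.0% of comparison genes. All 3 same-numbered pairs pointed up for 40 members (71.4%), against 22.7% of all genes and 93.1% of comparison genes. These values and counts share their control libraries with the rule. It asked for values above those libraries, which favours a rise in both sets. For the members it also set a ceiling over the same libraries with all 3 factors. That favours a smaller rise in the members than in the comparison genes, which did not have to meet it.

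KH.C11.155 had the highest fold change of the members in that comparison. Its 3 control libraries were at 16.7, 29.4 and 22.1 normalised reads and its Bra+Mnx libraries at 49.3, 66.4 and 81.6, with no overlap. The log2 fold change was 1.49 ± 0.33 (adjusted p = 0.0718 without and 0.00433 with the block, limma). With Bra it was at 86.4, 93.1 and 114, higher in every library than in Bra+Mnx, but the difference from Bra of -0.59 ± 0.25 did not pass (adjusted p = 0.150 with the block). This gene was also among the 4 members that stood lower in Bra+Foxa.a, at 54.7, 63.3 and 59.5, than in Bra.

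KH.S461.3, KH.C14.30 and KH.S766.1 rose over control with the block, by log2 fold changes of 1.48 ± 0.44 (adjusted p = 0.0106), 1.01 ± 0.42 (adjusted p = 0.00156) and 0.88 ± 0.27 (adjusted p = 0.00313). Without the block their adjusted p in limma was 0.210, 0.504 and 0.236. The call of KH.S461.3 was lost without number 2 (adjusted p = 0.0557), whereas KH.C14.30 and KH.S766.1 passed both comparisons with any 1 number left out. They were thereby among 7 members that, with the block, both rose over control and fell below Bra in Bra+Mnx. Beside these 7 of 56, both calls were made for 4.05% of comparison genes and 0.183% of the 14172 genes in both fits. Another 8 members passed only above control, 7 only below Bra, and 34 passed neither test, where the shares over all genes were 6.32%, 0.649% and 92.8%. The lowest fold change against control belonged to KH.L18.72, at -0.22 ± 1.14, whose 3 Bra+Mnx libraries held 11.9, 0 and 23.1 normalised reads and whose sign rested on the library at 0.

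Calls were more frequent among members with many reads. Of the 19 members at a control mean of 100 or more, 10 rose over control (52.6%) and 9 fell below Bra (47.4%) with the block. All genes at that level rose in 5.78% and fell in 0.877%, and comparison genes in 91.7% and 3.79%. Of the 19 members under 20 normalised reads, 2 rose (10.5%) and 1 fell (5.26%), against 7.40% and 0.576% of all genes and 68.7% and 6.80% of comparison genes. The median log2 differences were alike in these classes, at 0.52 and 0.62 against control and at -0.47 and -0.54 against Bra. Whether read depth set the difference in calls was not tested. KH.L153.43, with one of the largest drops from Bra+Foxa.a, was at 2.64, 2.10 and 3.31 normalised reads in control, 34.6, 25.9 and 25.2 in Bra+Foxa.a, and 3.27, 1.21 and 4.30 with all 3 factors. In Bra+Mnx it was at 1.70, 8.05 and 3.65 beside 5.57, 11.6 and 11.6 in Bra, a difference of -1.07 ± 0.48 that did not pass (adjusted p = 0.346 with the block). KH.C7.590, with the other of the largest drops, was at 13.9, 76.8 and 58.0 in Bra and 8.49, 17.1 and 30.4 in Bra+Mnx. Its difference of -1.22 ± 0.67 did not pass either (adjusted p = 0.323 with the block).

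Placing the 4 treated groups in order of mean D gave Bra+Foxa.a, Bra, Bra+Mnx and Bra+Foxa.a+Mnx, from high to low, for 33 members. The last pair was exchanged for another 15, and the remaining 8 followed 5 other orders. The rule fixes that Bra+Foxa.a stands above Bra+Foxa.a+Mnx. It does not fix where Bra+Mnx falls, but high values in Bra+Foxa.a and low ones with all 3 factors favour a place between them. Bra+Mnx stood above Bra+Foxa.a+Mnx for 40 members and below it for 16. Among the 420 comparison genes it stood above for 189 and below for 231, and among all 14260 genes tested above for 7065. The median of Bra+Foxa.a+Mnx minus Bra+Mnx was -0.13, a difference that was not tested. By replicate number, the member medians were 0.39, 0.30 and 0.47 with all 3 factors and 0.37, 0.47 and 0.76 in Bra+Mnx. The same-numbered libraries thus did not all differ in the same direction. Mean D in Bra+Mnx was under 0.7, the ceiling the rule applied to Bra+Foxa.a+Mnx, for 37 members, and at least 0.7 for 19. Most genes lay under that value, with an upper quartile of 0.13 over all genes tested. The lower quartile of the comparison genes was 0.92.

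**Figure D4:**
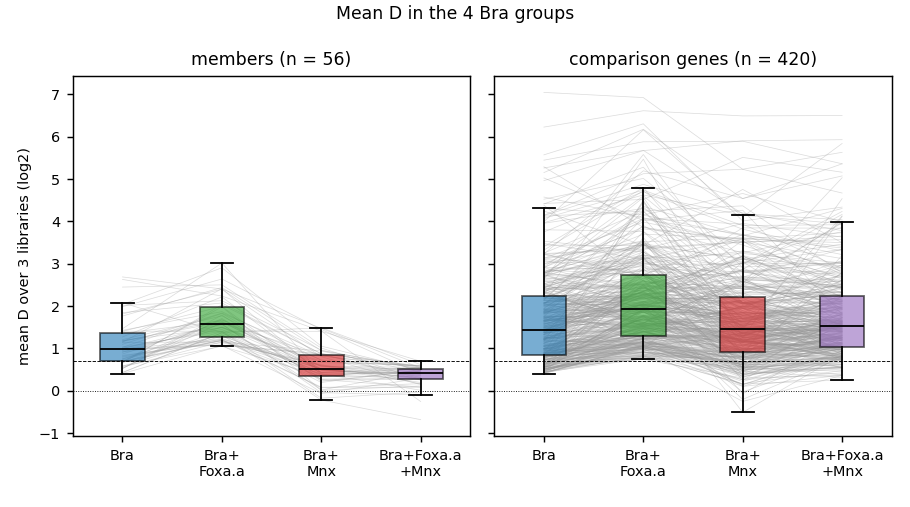
Mean D, the log2 ratio to control averaged over 3 libraries, in the 4 treated groups for the 56 members and the 420 comparison genes. Thin lines are genes, boxes the quartiles and median, whiskers reach 1.5 interquartile ranges, the dotted line is 0 and the dashed line 0.7. Member medians are 1.57 in Bra+Foxa.a, 0.99 in Bra, 0.52 in Bra+Mnx and 0.41 for all 3 factors, and comparison medians stay between 1.44 and 1.93.

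Some members departed from the common order. KH.S1054.1 was at 15.8, 19.8 and 14.8 normalised reads in Bra and at 20.4, 16.1 and 26.8 in Bra+Mnx, a difference of 0.30 ± 0.31 that did not pass (adjusted p = 0.698 with the block). KH.C12.170 was at 18.6, 18.6 and 6.32 in Bra and 19.5, 19.1 and 9.74 in Bra+Mnx, a difference of 0.22 ± 0.44 (adjusted p = 0.808 with the block), and it turned negative without Bra replicate 3. In both genes the Bra and Bra+Mnx libraries overlapped. Bra+Foxa.a libraries were far higher, at 42.3, 29.7 and 37.3 for the former and 44.6, 25.9 and 38.3 for the latter. KH.C2.59, second in reads in Bra+Foxa.a, was likewise highest in that group. It was at 1085, 997 and 772 in control, 1471, 1208 and 1168 in Bra, and 3205, 1930 and 2343 in Bra+Foxa.a. In Bra+Mnx it was at 1226, 1151 and 898.5, a log2 fold change over control of 0.20 ± 0.17 (adjusted p = 0.0400 with the block) and a difference from Bra of -0.24 ± 0.19 (adjusted p = 0.327 with the block). The call over control was lost whichever number was left out (adjusted p of 0.162, 0.138 and 0.0786 without numbers 1, 2 and 3).

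The electroporated factors were read beside these results. Bra (KH.S1404.1) was at 612, 793 and 556 normalised reads in control, 963, 1449 and 798 in Bra, and 1083, 1279 and 1243 in Bra+Mnx. Bra reads in Bra+Mnx were in the range of the Bra libraries, and the difference was 0.21 ± 0.18 on the log2 scale (adjusted p = 0.456 with the block). With all 3 factors they were at 1550, 1618 and 1454, above the 1202, 1332 and 1090 of Bra+Foxa.a in every pair. That difference of 0.35 ± 0.18 did not pass (adjusted p = 0.137 with the block). Mnx (KH.L128.12) was at 1468, 1453 and 2950 in Bra+Mnx against 366, 448 and 403 in Bra, a rise of 2.19 ± 0.24 (adjusted p = 0.00485, limma without the block). It was 3.11 ± 0.24 higher with all 3 factors than in Bra+Foxa.a (adjusted p = 6.20e-05). Foxa.a (KH.C11.313), which neither group received, differed between Bra+Mnx and Bra by 0.25 ± 0.11 (adjusted p = 0.300 with the block).

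The listed neural genes also had lower values in Bra+Mnx than in Bra, but few passed, and only with the block. Celf3/4/5/6 (KH.C6.128), the RNA-binding protein gene whose enhancer drives the plasmids, was at 5357, 6337 and 5255 in Bra and 4360, 4288 and 3800 in Bra+Mnx, with no overlap. Its log2 difference was -0.44 ± 0.13 (limma, adjusted p = 0.916, and 0.0167 once the block was included). Of 7 neural genes (Neurog, Ebf, Otx, Pou4, Islet, Msx and Tyr), 0 passed without the block and 2 fell with it, Msx (adjusted p = 0.0239) and Ebf (adjusted p = 0.0425). Their log2 differences ranged from -0.60 to -0.14 with a median of -0.41, near that of the members. Against control, these 7 genes had medians of -0.53 in Bra and -1.15 in Bra+Foxa.a, where the rule required the members to be high. Msx alone was not below control there, at 0.12 and 0.02. Without the block 1 of the 7 neural genes fell in Bra and 5 in Bra+Foxa.a, and with it 6 fell in each, all but Msx. Shares over all genes are not given for those comparisons. Of the other lists, the muscle gene Mrf did not pass in either fit (-0.39 ± 0.14), and 1 of 3 cardiac genes, Nkx2-5, fell with the block (-0.40 ± 0.13, adjusted p = 0.0388), while Hand-r and Foxf did not pass. The part of these genes, and of the cells they mark, in the members' result was not tested. Between Bra+Foxa.a+Mnx and Bra+Foxa.a, a contrast that chose the members, the same 7 neural genes had a median of -0.09. With the block 1 of them fell there, Msx (-0.37 ± 0.31, adjusted p = 0.0264), and Celf3/4/5/6 differed by -0.16 ± 0.13 (adjusted p = 0.634 with the block). Tbx2/3 (KH.L96.87), a T-box gene of the notochord, differed between Bra+Mnx and Bra by 0.05 ± 0.13 (adjusted p = 0.824 with the block), at 2945, 3280 and 3395 normalised reads against 2725, 3861 and 2800.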

How the data were processed

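The authors deposited 4 tables, each holding 1 Bra group and the 3 controls, of size-factor-scaled read counts (unit signal: never negative, normalised separately in each table), made with TopHat2 2.9.8b and DESeq 1.8.1, per the submitters' processing notes. How genes were counted, whether by strand (the kit was stranded, per the labels' protocols) and with what rule for overlapping or near-identical genes, was not given in the sources used. Values were whole multiples of 1 step, which gave back whole reads within a tolerance of 0.01 for 100% of values in the 24 columns used. A further 24 columns were not used. Replicates differed by more than counting noise (the lowest chi-square per degree of freedom was 14.4), so none was counted as a copy.

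D, the choice of members and Bra+Mnx against control used the values of 1 table. The last was fitted with limma-trend (limma 3.58.1, R 4.3.3) on log2(value + 1), leaving out genes whose mean was under 1. Bra+Mnx against Bra, which no table holds together, was fitted on the recovered reads of all 15 libraries over 1 set of median-of-ratios size factors. Printed normalised reads are on that scale. Tests were two-sided with Benjamini-Hochberg adjustment over all genes tested, and calls were made at an adjusted p under 0.05. Fold changes on the log2(value + 1) scale understate changes of genes with few reads.

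The titles number the replicates. A check over 14260 genes of whether the numbers pair the samples found that all 15 libraries correlated best with their own number. The fit with the number as a term is the replicate block. Alternatives were edgeR 4.0.16, DESeq2 1.42.0, other pseudocounts, filters, factors and fits, and each replicate left out.

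The members, the lists and the tests were chosen with earlier results of these data known. Named members were the 2 highest and 2 lowest in each comparison, the 2 with most reads in Bra+Foxa.a, the 2 with the largest drop, and those at each threshold. A member could qualify in more than 1 way. Genes with names were paired with KH identifiers by hand, unchecked against an annotation. The limma fit without the block was tested on simulated reads that held no effect of the replicate number. The fits with the block, edgeR and DESeq2 were not tested in that way.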

Additional observations from a re-analysis of the deposited data

How the results depend on the processing

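The number of members called depended on the pairing. Members higher in Bra+Mnx than control numbered 0 in limma without the block and 15 with it, 21 in edgeR with the block (an alternative chosen after seeing the data), 3 in DESeq2 and 2 in 1 fit of all 5 groups, and 0 to 19 when a replicate was left out (with the block 19, 10 and 11 without numbers 1, 2 and 3). Members lower than in Bra numbered 0 without and 14 with the block, 15 in edgeR with the block and 2 in DESeq2, and 0 to 14 when a replicate was left out (with the block 11, 4 and 14). A pseudocount of 5, no filter on low values, edgeR without the block, TMM factors and the fit of the 2 groups alone also gave 0. The members named only for lying at a threshold were not followed across these settings. Among the other named members, signs turned only in differences that passed under none of them. Against control, KH.L18.72 was at 0.12 with a pseudocount of 5, 0.47 in edgeR, 0.44 in edgeR with the block and 0.49 in DESeq2, and ranged from -1.13 to 1.16 with a replicate left out (0.69 with the block without number 2). KH.C8.652 ranged from -0.37 to 0.049, and KH.L153.43 from -0.16 to 0.83 (-0.046 without Bra+Mnx replicate 2). Against Bra, KH.L18.72 ranged from -1.90 to 0.40 (0.026 with the block without number 2) and KH.C12.170 from -0.25 to 0.53. A pseudocount of 5 in the rule gave 55 members, 47 of them shared, and 1 scale across tables gave 55, all shared. All 4 members called lower than in Bra without number 2 were among the 14. The 3 libraries per group limit the precision of every value.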

Other observations

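The rule's ceiling on mean D kept out genes that also stood lower with Mnx but responded more strongly to Bra. Among the comparison genes, 113 were at least 0.7 lower with all 3 factors than in Bra+Foxa.a and still had a mean D of at least 0.7. Their median mean D with Bra was 2.12, against 0.99 for the members. In Bra+Mnx these 113 genes differed from Bra by a median of -0.46 on the log2 scale, close to the -0.51 of the members, with 90 below 0. With the replicate block 18 of them fell (15.9%) and 0 rose. The 280 comparison genes that met neither Mnx condition had a median of 0.22 in the same comparison, and 24 rose (8.57%) and 3 fell (1.07%). The 27 genes under the ceiling without the drop had a median of -0.11, and 2 fell (7.41%). These sets were split on the Bra+Foxa.a libraries and those with all 3 factors, and their difference from each other was not tested.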
